A study of Mus musculus with 6 samples.

Results

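The let-7 family of microRNAs (miRNAs) is described here in extracellular vesicles, the membrane-bound particles that cells release. The members are the 9 rows of the deposited count table that carry the 5p arm of a let-7 hairpin, namely let-7a, b, c, d, e, f, g and i and miR-98, found by name among 620 rows. All 9 were found, and all 9 passed the filter on low counts that left 206 miRNAs for testing. The vesicles are labelled as coming from wild-type (WT) mouse PBMCs (peripheral blood mononuclear cells, that is lymphocytes and monocytes). There were 3 libraries from untreated cells (control) and 3 labelled IS-stimulated, where IS is not spelled out in the labels and neither a dose nor a time is given. Nothing in the labels tells whether a group's 3 libraries stem from different mice or cultures, so errors and p-values describe only how these libraries vary, and that variation may be technical.

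A miRNA hairpin is cut into a duplex of a 5p and a 3p strand, of which the guide strand is loaded into an Argonaute protein and the passenger strand is mostly degraded. The guide pairs with messenger RNAs mainly through its seed, bases 2 to 8, so miRNAs with the same seed share many targets. The let-7 miRNAs are known as brakes on growth and as marks of differentiated cells, with Ras, Myc, Hmga2 and Lin28 genes among their targets, and the LIN28 proteins in turn block the maturation of let-7 precursors in stem cells. In blood they are abundant in lymphocytes and are commonly found in vesicle RNA.

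The mature sequences are shown because the members differ so little that the assignment of reads to them matters. They are RefSeq sequences of GRCm38.p6, written 5′ to 3′, with the seed in capitals.
let-7a-5p: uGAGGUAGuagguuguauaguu
let-7b-5p: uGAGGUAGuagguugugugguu
let-7c-5p: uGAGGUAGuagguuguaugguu
let-7d-5p: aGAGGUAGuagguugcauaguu
let-7e-5p: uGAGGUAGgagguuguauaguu
let-7f-5p: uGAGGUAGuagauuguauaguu
let-7g-5p: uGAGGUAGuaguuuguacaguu
let-7i-5p: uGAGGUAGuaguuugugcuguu
miR-98-5p: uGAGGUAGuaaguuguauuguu

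All 9 members are 22 bases long, so no correction for length was made. Whether library making captured each sequence equally well was not tested, so levels, shares and orders here are those of the counts. They hold 1 seed between them, which in the RefSeq table is shared by only 2 other mature miRNAs, let-7k and miR-1961, neither of which has a row in the count table. With positions counted from 1 at the 5′ end, let-7a differs from let-7c by A19G, from let-7e by U9G and from let-7f by G12A, and let-7b differs from let-7c by G17A. These are the 4 pairs of members that lie 1 base apart, out of 36 pairs. Relative to let-7a, let-7g carries G12U and U18C, and let-7i carries the same 2 substitutions together with A17G and A19U. How many mismatches counting allowed is not stated in the labels, so the split of reads between members 1 base apart is uncertain.

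The 9 guides come from 12 hairpins, most of them in clusters. Hairpins of let-7a-1 (chromosome 13, 48538179 to 48538272, minus strand, GRCm38), let-7f-1 (48537829 to 48537917) and let-7d (48536012 to 48536114) lie in annotated exons of the long non-coding RNA 6720427I07Rik. On chromosome 15 the hairpins of let-7c-2 (85706603 to 85706697, plus strand) and let-7b (85707319 to 85707403) lie in exons of the non-coding transcript Lncppara. Those of let-7f-2 (X, 151912346 to 151912428, plus strand) and miR-98 (151913214 to 151913321) lie in introns of Huwe1, a ubiquitin ligase gene.

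The other 5 hairpins are single let-7 loci. An intron of Wdr82 holds let-7g (chromosome 9, 106178840 to 106178927, plus strand) and an intron of Spaca6 holds let-7e (chromosome 17, 17830352 to 17830444, plus strand), next to miR-99b and miR-125a. Introns of non-coding genes hold let-7c-1 (chromosome 16, 77599657 to 77599750, plus strand, in Mir99ahg) and let-7a-2 (chromosome 9, 41536716 to 41536811, plus strand, in 3110039I08Rik and Gm49317). The let-7i hairpin (chromosome 10, 122985640 to 122985724, minus strand) lies in an exon of the transcribed pseudogene D630033A02Rik. Reads of let-7a, let-7c and let-7f cannot be divided between their 2 loci each, since the mature sequences are the same.

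On average 24.1% of all miRNA counts belonged to the family. Its 9 rows took 22.9% of the counts in control 1, 26.2% in control 2 and 24.6% in control 3, against 20.9, 28.0 and 22.4% in IS 1, 2 and 3, with a 95% Wilson interval of at most 0.230 percentage points on either side. The highest and the lowest of these values were both IS libraries, and the control values lay between them. The group means were 24.5 ± 1.65% in control and 23.7 ± 3.74% in IS (mean ± SD, n = 3 per group), a difference of -0.805 percentage points that turned to 0.628 without IS 1 and to 0.00524 without control 2. Some miRNAs in the table appear under more than 1 name with nearly the same counts, no let-7 member among them. With the 12 surplus rows taken out of the totals, the family took 27.5, 29.1 and 29.8% in control 1, 2 and 3, against 25.5, 34.5 and 25.6% in IS 1, 2 and 3.

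**Figure D1:**
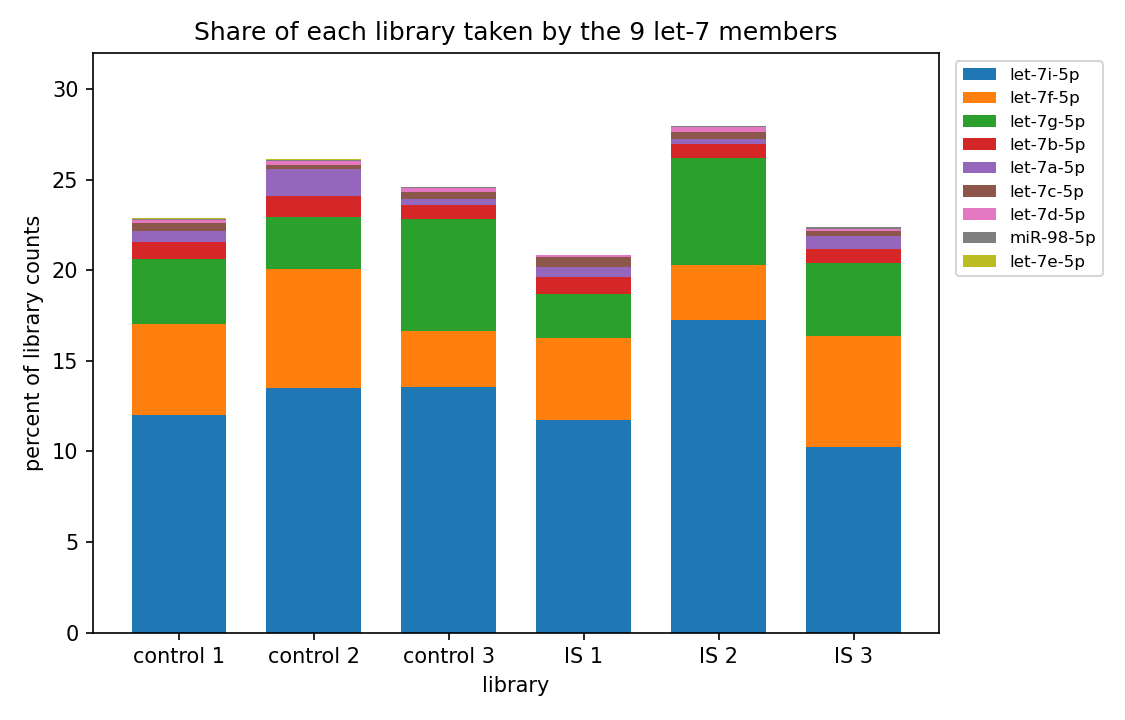
Stacked bars of the percent of each library's counts (vertical axis, from 0) taken by each of the 9 let-7 members in the 6 libraries. The bars reach 20.9% (IS 1) to 28.0% (IS 2), and let-7i-5p, let-7f-5p and let-7g-5p fill most of each.

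Library totals ran from 125731 to 435468 counts, so a single count was worth 2.30 to 7.95 CPM (reads of a miRNA for every 1000000 counted in its library). The miRNA markers of leukocytes (miR-142a-5p, miR-142a-3p, miR-223-3p and miR-150-5p) were all present, but together held 0.573 to 2.61% of the counts. Red cell markers (miR-451a, miR-144-3p and miR-486a-5p) held 9.31 to 21.9%, the liver marker miR-122-5p 2.35 to 11.3%, the vessel wall markers miR-126a-3p and miR-143-3p 0.946 to 3.52%, and the muscle markers miR-1a-3p, miR-133a-3p and miR-206-3p 0.0311 to 0.470%. Every listed marker had counts. In all 5 lists the ranges of the summed level overlapped between control and IS, and the part of each cell type in the let-7 counts was not tested. In such bulk libraries fewer vesicles of a cell type and fewer molecules per vesicle cannot be told apart.

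The order of the members was led by let-7i-5p in every library. By mean CPM over the 6 libraries it ranked highest of all 620 rows, and in single libraries it ranked 1 in control 3 and IS 2, 2 in control 1, control 2 and IS 1, and 3 in IS 3. Its level was 120336, 134985 and 135810 CPM in control 1 to 3 and 117103, 172490 and 102687 CPM in IS 1 to 3. Control libraries were close together and sat within the wider IS range. It took 51.6 to 55.2% of the family counts in control and 45.9 to 61.7% in IS.

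Next came let-7f-5p, made from hairpins on chromosomes 13 and X, with 50023, 65539 and 30971 CPM in control 1 to 3 and 45683, 30341 and 60940 CPM in IS 1 to 3. The level of let-7g-5p was 35648, 28720 and 61614 CPM in control 1 to 3 and 24229, 59249 and 40269 CPM in IS 1 to 3. Each group thus held high and low libraries of both, and control 3 and IS 2 were the lowest for let-7f and the highest for let-7g. In the family counts, let-7f took 10.9 to 27.2% and let-7g 10.98 to 25.1% over the 6 libraries. Together with let-7i they made up 87.6% (control 2) to 93.7% (IS 2) of the family.

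**Figure D2:**
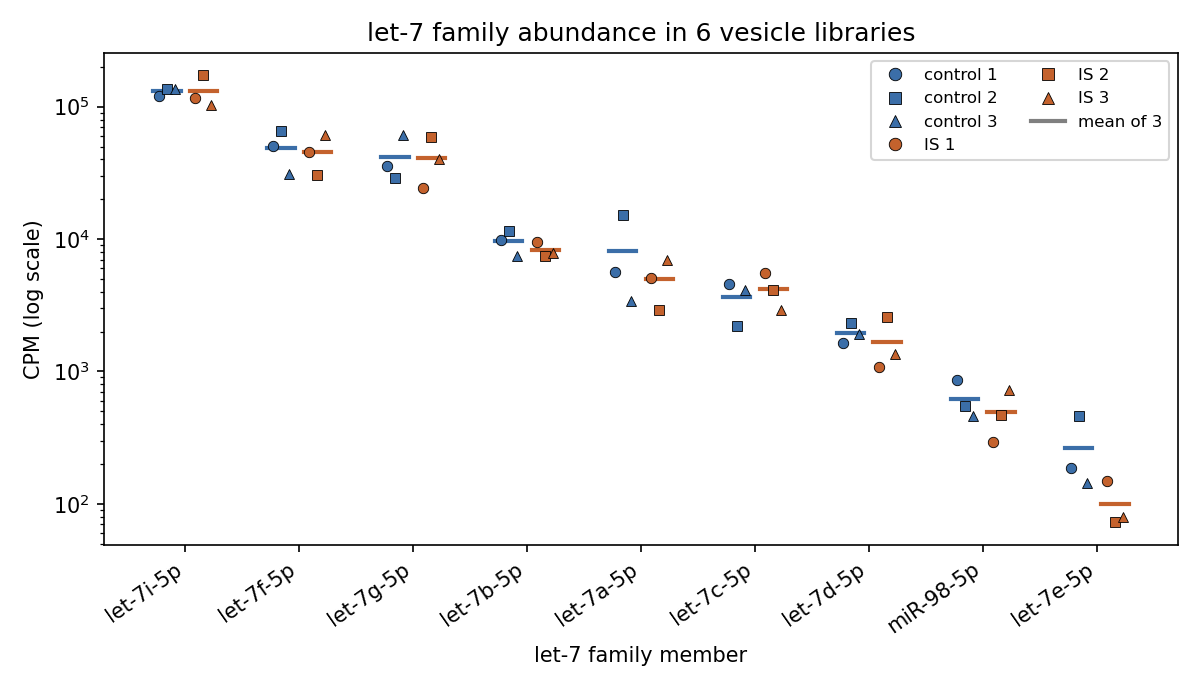
CPM on a log axis for the 9 members, ordered by their mean over 6 libraries, with 1 point per library (blue control, orange IS) and a bar at the mean of 3. The groups overlap for every member, from let-7i-5p at 102687 to 172490 CPM to let-7e-5p at 72.5 to 463 CPM.

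The other 6 members shared 6.27 to 12.4% of the family counts. The steadiest of them, let-7b-5p, stood at 9829, 11555 and 7495 CPM in control and 9504, 7403 and 7818 CPM in IS. Its near copy let-7c-5p, cut from the neighbouring chromosome 15 hairpin and from chromosome 16, stood at 4546, 2189 and 4145 CPM in control and 5583, 4097 and 2919 CPM in IS. The lowest let-7c value belonged to control 2, the library in which let-7b was highest, and the let-7b count was 5.28 times that of let-7c there, against 1.70 to 2.68 times in the other 5.

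A single control library stood out for let-7a-5p, whose sequence is that of the founding let-7 of worms. Its level was 5619, 15304 and 3378 CPM in control 1 to 3 and 5074, 2928 and 6999 CPM in IS 1 to 3. Control 2 was thus far above every other library, and the remaining control values lay within the IS range. The same library was highest for let-7e-5p, which had 185, 463 and 142 CPM in control 1 to 3 and 147.5, 72.5 and 79.5 CPM in IS 1 to 3. These let-7e levels rest on 50, 109 and 62 counts in control and 22, 23 and 10 counts in IS, so counting error alone is up to 31.6% of a value.

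For let-7d-5p the levels were 1631, 2325 and 1922 CPM in control and 1072, 2556 and 1352 CPM in IS. The X-linked miR-98-5p, which keeps its older name although it has the let-7 seed, stood at 862, 544 and 457 CPM in control and 295, 466 and 724 CPM in IS. The control values of let-7d lay within its IS range, and for miR-98 control 1 was the highest library and IS 1 the lowest.

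Not every step in this order was larger than the spread between libraries. In all 6 libraries let-7i exceeded let-7f, by 1.69 to 5.68 times, and let-7g exceeded let-7b, by 2.49 to 8.22 times. Also in 6 of 6, let-7d exceeded miR-98 and miR-98 exceeded let-7e. By contrast let-7f exceeded let-7g in 4 of 6 libraries, let-7b exceeded let-7a in 5, let-7a exceeded let-7c in 3 and let-7c exceeded let-7d in 5. For these 4 steps the order of the means is not a fixed order of the libraries.

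The spread differed between members. Over the 6 libraries the SD of log2(CPM + 1) was 0.25 for let-7i and 0.26 for let-7b, which ranked 4 and 5 from the lowest of 206 tested miRNAs. It was 0.47 to 0.54 for let-7c, let-7d, let-7f, let-7g and miR-98, 0.85 for let-7a and 0.96 for let-7e. The median over members was 0.49, beside 0.90 over all tested miRNAs and 0.59 over the 60 tested miRNAs with a mean of 1000 CPM or more. Within groups, the median coefficient of variation was 34.8% in control and 40.7% in IS for the members, 50.9 and 57.7% for all tested miRNAs, and 42.4 and 42.1% for those 60 abundant ones. The summed family had an SD of 0.16, below that of any single member.

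The members did not move as a block. In control 3 and IS 2, let-7g lay 0.65 and 0.59 above its own mean of 6 libraries on the log2(CPM + 1) scale, while let-7a lay 0.72 and 0.93 below and let-7f 0.55 and 0.58 below. In control 2 the deviations were 1.46 for let-7a and 1.64 for let-7e, and -0.77 for let-7c and -0.45 for let-7g. IS 1 was the lowest library for let-7d, let-7g and miR-98 and the highest for let-7c.

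**Figure D3:**
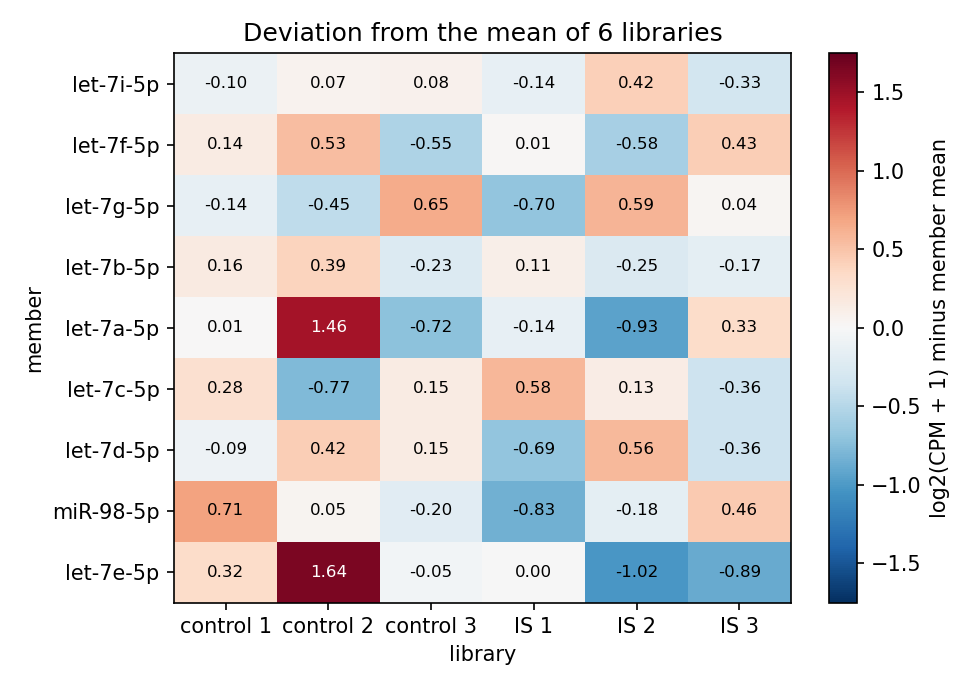
Deviation of each member from its own mean over the 6 libraries, in log2(CPM + 1), with members in rows and libraries in columns (red above, blue below). The row of let-7g-5p is opposite in sign to those of let-7a-5p and let-7f-5p in control 1, control 2, control 3 and IS 2.

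Counted as shares of the family, let-7g and let-7i together took 80.3% in control 3 and 82.9% in IS 2, against 68.2, 62.6, 67.7 and 63.9% in control 1, control 2, IS 1 and IS 3. The shares of let-7a and let-7f together were 14.0 and 11.9% in control 3 and IS 2, against 24.3 to 30.9% in the other 4. A high and a low state of this balance were therefore present in each group, and the group means were alike, at 70.4 ± 9.04% in control and 71.5 ± 10.05% in IS for let-7g with let-7i (SD, n = 3). These pairs of members were chosen after their values were seen, so the contrast is a description.

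Some other measures, though not all, separated the same libraries. Control 3 and IS 2 had the highest leukocyte marker sums, at 2.18 and 2.61% of counts against 0.573 to 1.12% in the other 4, and the highest red cell sums, at 18.4 and 21.9% against 9.31 to 14.8%. The leukocyte sum was mostly miR-142a-5p, and miR-142a-3p and miR-150-5p were also highest in these libraries. The myeloid miR-223-3p was not, with 68.9 CPM in control 3 and 18.9 CPM (6 counts) in IS 2, its lowest value, against 29.6 to 255 CPM in the other 4. They had the lowest vessel wall sums, at 1.64 and 0.946% against 2.14 to 3.52%, and they were also the most deeply sequenced, with 435468 and 317323 counts against 125731 to 270335. The liver sum did not set these libraries apart, at 4.59% in control 3 and 3.32% in IS 2 against 2.35 to 11.3% in the other 4. Nor did the muscle sum, at 0.0767 and 0.160% against 0.0311 to 0.470%. The part of cell source or depth in the let-7 balance was not tested.

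**Figure D4:**
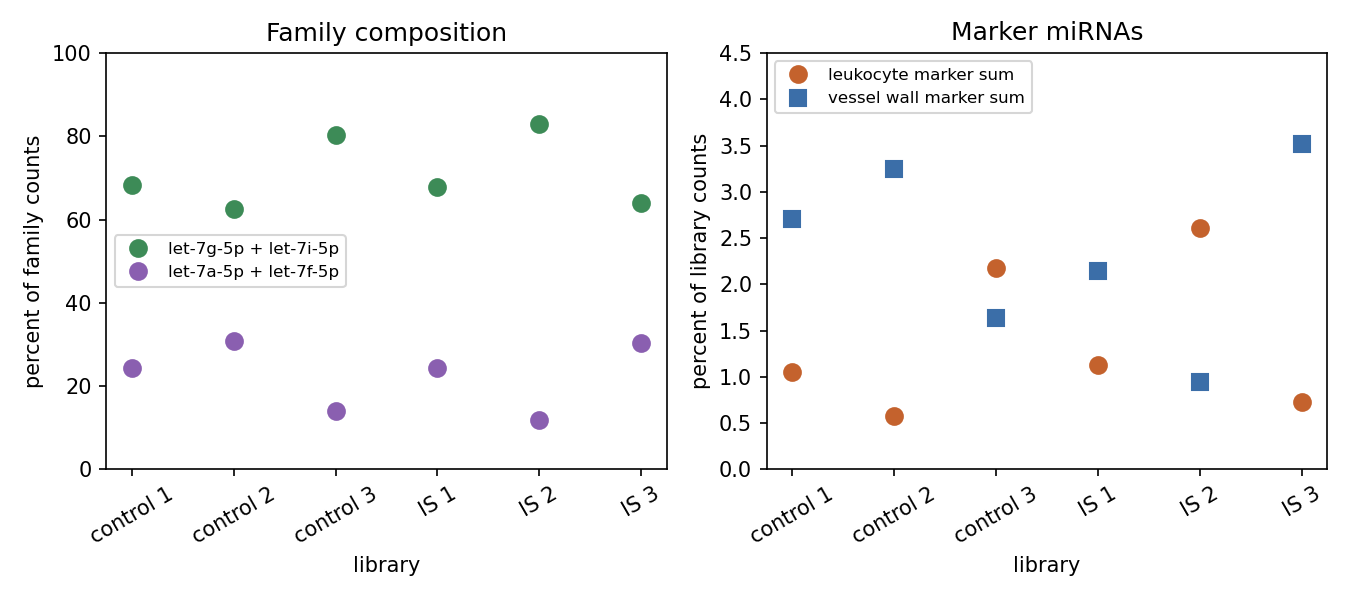
Left, percent of family counts (0 to 100) taken by let-7g-5p with let-7i-5p and by let-7a-5p with let-7f-5p in each library. Right, percent of library counts taken by the leukocyte and the vessel wall markers. Control 3 and IS 2 are the highest for let-7g with let-7i (80.3 and 82.9%) and for leukocyte markers (2.18 and 2.61%), and the lowest for the other sets.

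The steadiness of a pair was read as the SD over the 6 libraries of the log2 ratio of their CPM values plus 1, where 0 would be a fixed ratio. The lowest of 36 pairs was let-7d with let-7i (0.30), whose hairpins are on chromosomes 13 and 10. For pairs that share a transcript it was 0.46 for let-7a with let-7f, 0.56 for let-7f with miR-98, 0.62 for let-7b with let-7c and 0.77 for let-7d with let-7f, and let-7a with let-7d was at 0.98. The first 3 of these lay below and the last 2 above the median of all 36 pairs, which was 0.72, beside 1.38 over 21115 pairs of tested miRNAs and 0.86 over 1770 pairs with a mean of 1000 CPM or more. Multiple loci feed let-7a, let-7c and let-7f, so a row is not the output of a single transcript.

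The let-7a count was 11.2, 23.4 and 10.9% of the let-7f count in control 1, 2 and 3, against 11.1, 9.65 and 11.5% in IS 1, 2 and 3. In 5 of the 6 libraries this ratio was nearly fixed at 9.65 to 11.5%, and control 2 was the exception. These sequences are 1 base apart, and the number of reads assigned to the wrong member was not tested.

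Whether IS stimulation changed the vesicle let-7 miRNAs is the comparison the groups imply, and no member differed past the threshold. With edgeR's quasi-likelihood test and Benjamini-Hochberg adjustment over all tested miRNAs, 0 of 9 members had an adjusted p under 0.05, as had 0 of the 206 tested (0%), and DESeq2 (0 of 618, 0%) and limma on log2(CPM + 1) (0 of 206, 0%) also called none. At an unadjusted p under 0.05 in edgeR there were 0 members, against 3 of 206 tested miRNAs (1.46%). Among those 3, miR-1a-3p and miR-1b-5p held the same counts in every library and are counted separately. The groups overlapped in CPM for all 9 members, while they did not overlap for 3 of 206 tested miRNAs (1.46%). The log2 fold change, IS minus control, was below 0 for 6 members and above 0 for 3, with a median of -0.19, beside a median of 0.022 and 47.1% below 0 over all tested.

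For the 3 abundant members the fold change was near 0 but its interval was wide. It was 0.059 for let-7i (SE 0.50, 95% interval -1.04 to 1.15), -0.12 for let-7f (SE 0.51, -1.24 to 0.999) and 0.0027 for let-7g (SE 0.52, -1.14 to 1.14). Each interval thus reached about 1 log2 unit in either direction. The fit took the libraries as unpaired, and the labels state no pairing. Pairing in an order other than that of the replicate numbers was not fitted. The signs are not settled, since let-7g turned to -0.027 with library totals alone and let-7i to -0.27 without IS 2.

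The largest difference belonged to the rarest member. For let-7e the log2 fold change was -1.30 (SE 0.76, interval -2.97 to 0.37, unadjusted p = 0.115, edgeR adjusted p = 0.996), with a mean of 264 ± 174 CPM in control and 99.8 ± 41.4 CPM in IS (SD, n = 3). With a library left out it ran from -2.01 (without IS 1) to -1.06 (without control 2, the library with the most let-7e), and it was below 0 in every alternative fit. For let-7a it was -0.68 (SE 0.60, interval -2.01 to 0.64) and ran from -1.26 without IS 3 to -0.25 without control 2. The value of miR-98 was -0.43, from -0.89 without IS 3 to -0.24 without control 1. Those of let-7d and let-7b were both -0.19, and reached -0.74 without IS 2 and -0.57 without IS 1. For let-7c it was 0.26, which turned to -0.36 without control 2 and to -0.23 without IS 1.

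**Figure D5:**
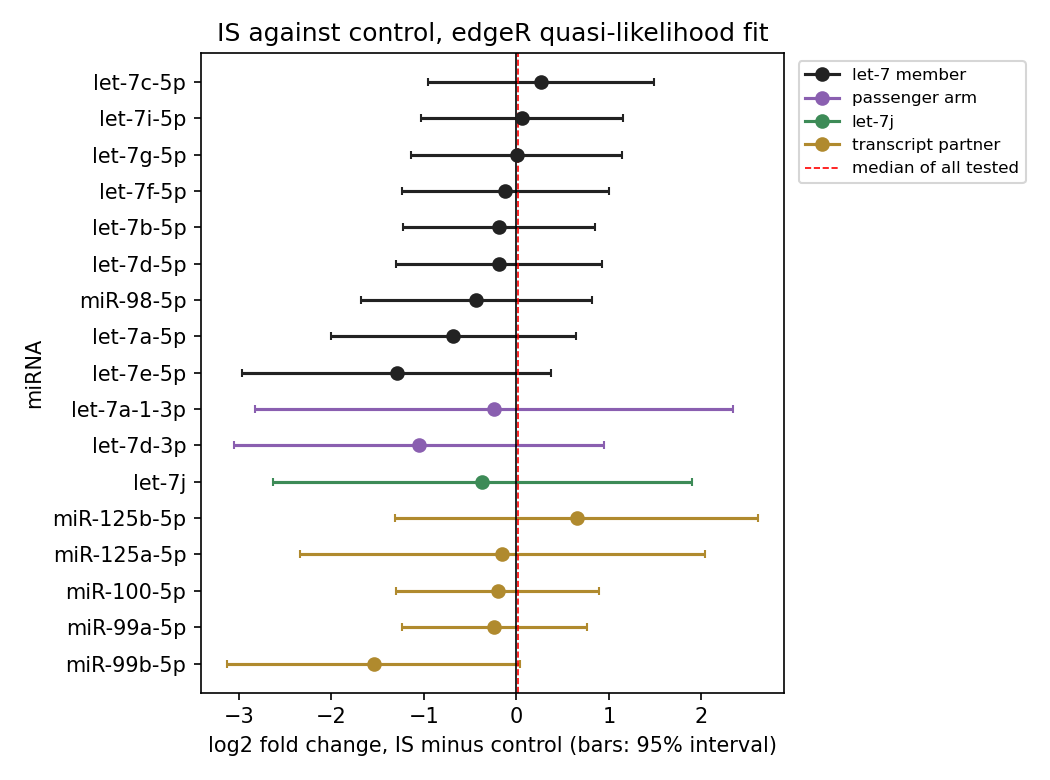
log2 fold change, IS minus control, with 95% intervals from the edgeR quasi-likelihood fit for the 9 members, the tested passenger arms, let-7j and the transcript partners. Every interval includes 0, and let-7e-5p (-1.30) and miR-99b-5p (-1.54) lie farthest from it.

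In ratios between members, which do not depend on library totals, let-7e again stood apart. The let-7e count was 3.29, 3.03 and 4.21% of the let-7a count in control 1, 2 and 3, against 2.91, 2.48 and 1.14% in IS 1, 2 and 3. The lowest control value was above the highest IS value, by a small margin. Such separation occurred in 4 of the 36 member ratios (11.1%), those of let-7e to let-7a, let-7b, let-7c and let-7f, against 3.45% of 21115 pairs of tested miRNAs. The 4 ratios share the let-7e counts, which are as low as 10, and were found by looking through all pairs, so they are 1 description and not 4 results.

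None of the 9 within-family shares separated the groups. The mean share of let-7i was 53.1 ± 1.87% in control and 54.6 ± 8.02% in IS, that of let-7f 19.8 ± 6.47 and 20.0 ± 8.35%, and that of let-7g 17.2 ± 7.18 and 16.9 ± 4.88% (SD, n = 3 per group). These 3 differences, at most 1.42 percentage points, were smaller than the SD within either group. For these 3 members counting error was at most 0.582 percentage points (on either side, 95% Wilson interval), below the SD of each group. For let-7e, the rarest member, counting error in IS was comparable in size to the spread between libraries. Its share in IS had an SD of 0.0235 percentage points and, in IS 1, a 95% interval of 0.0467 to 0.107% around 0.0707%. In control its SD was larger, at 0.0632 points, beside an interval of 0.147 to 0.214% in control 2.

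The opposite arms of the hairpins were nearly absent, which bears on the name guide strand. Of the 378908 counts from all let-7 hairpins, 450 (0.119%) were of 3p arms. For let-7i no 3p row was found beside 208543 counts of the 5p arm, nor for miR-98 beside 843, and a row missing from the table is taken as 0 here. For let-7g and let-7f the 3p arms had 5 counts each, beside 70703 and 66533 of the 5p arm.

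The exception was let-7d, whose 3p arm supplied 340 of the 450 counts (75.6%). Its sequence is shown because it carries this exception, with the hairpin it comes from, in which the 5p arm is in capitals (RefSeq, GRCm38.p6, chromosome 13, minus strand). In the mature strand the capitals mark bases 2 to 8.
let-7d-3p: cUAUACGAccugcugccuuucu
let-7d hairpin: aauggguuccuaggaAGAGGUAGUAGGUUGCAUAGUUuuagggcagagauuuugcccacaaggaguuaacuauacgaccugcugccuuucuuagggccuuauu

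The 3p arm made up 16.5, 13.0 and 8.62% of the let-7d counts in control 1, 2 and 3, against 0.621, 6.78 and 15.8% in IS 1, 2 and 3. The low value of IS 1 was 1 count of 161 (95% Wilson interval 0.110 to 3.43%), below the lower limit of the interval in each of the other 5 libraries, the lowest of which was 5.29%. In the same library let-7a-1-3p, the only other 3p arm that was tested, had 0 counts beside 757 of let-7a-5p, which allows a share of up to 0.396% by the limit of 3 counts and 0.505% by the Wilson interval, against 0.524 to 2.21% elsewhere. By Wilson intervals it overlapped control 1 and control 2, whose lower limits were 0.266 and 0.423%. The log2 fold change of let-7d-3p was -1.05 (SE 0.91, interval -3.06 to 0.95, edgeR adjusted p = 0.996), and -1.60 to -0.64 with a library left out, nearest to 0 without IS 1.

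The row named let-7a-1-3p is not certain to come from let-7a. Its mature sequence is identical to that of let-7c-2-3p, which had no row. The reads under this name can therefore stem from the chromosome 13 or the chromosome 15 hairpin.

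A further relative, let-7j, had 65 counts in all. It is shown because it differs from let-7i-5p, the miRNA with the highest mean CPM, by G8U and 2 added bases at the 3′ end, with bases 2 to 8 in capitals.
let-7i-5p: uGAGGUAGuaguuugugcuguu
let-7j: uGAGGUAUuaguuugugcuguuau

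Its seed is thus not the family seed. The let-7j count was 0.0338, 0.0567 and 0.0254% of the let-7i count in control 1, 2 and 3, against 0.0458, 0.0183 and 0.0232% in IS 1, 2 and 3. These values overlapped between groups, and how many of the 65 reads came from let-7i was not tested.

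The motif GGAG in the hairpin loop is known as the binding letters of LIN28. Searched on the RNA strand alone, it occurred in 9 of the 12 let-7 hairpins, in each case after the 5p arm, and in 44.5% of 1005 mouse hairpins. Those without it were the hairpins of let-7b, let-7c-2 and miR-98. The let-7i hairpin is shown with the motif in capitals (RefSeq, GRCm38.p6, chromosome 10, minus strand).
let-7i hairpin: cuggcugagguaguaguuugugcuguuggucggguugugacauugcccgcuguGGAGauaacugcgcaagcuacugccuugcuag

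In the mature strand, where GGAG has been described as a letter pattern of miRNAs sorted into vesicles, it occurred in 1 of 9 members, let-7e, which was the least abundant. It was present in 51 of the 483 mature miRNAs of the count table with a RefSeq sequence (10.6%). The match of let-7e starts at base 8 and covers the base changed by U9G relative to let-7a.

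Several let-7 hairpins share their transcript with miR-99, miR-100 or miR-125 hairpins, which belong to families of their own. All 5 such partners were tested and 0 passed, 4 with a log2 fold change below 0 and 1 above. Beside let-7e on chromosome 17, miR-99b-5p had 144, 519 and 498 CPM in control and 181, 63.0 and 119 CPM in IS. Its log2 fold change was -1.54 (SE 0.72, edgeR adjusted p = 0.996), and -2.33 to -1.27 with a library left out. Control 1 lay within the IS range, as in let-7e, where control 3 did. The third miRNA of that cluster, miR-125a-5p, had -0.15 (SE 0.99) on 70 counts in all. Beside let-7c-1, miR-99a-5p had 5701 to 6687 CPM in control and 3697 to 6609 CPM in IS, and beside let-7a-2, miR-100-5p had 1042 to 1828 and 993 to 1479 CPM. For miR-125b-5p the value was 0.65 (SE 0.89), which turned to -0.029 without control 2.

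Of 182 tested miRNAs outside the family, with repeated rows counted once, miR-484 had the steadiest ratio to the summed family. The measure was the SD over 6 libraries of the log2 ratio to the family CPM, which was 0.16 for miR-484, at 71.2 to 107 CPM. That row had 11 to 34 counts, so counting error alone is up to 30.2% of a value and its place at the top of the order is not secure. Next were miR-106b-3p and miR-101a-3p (0.23 each), miR-7a-5p and miR-25-3p (0.27 each), against a median of 0.92 over the 182. As all rows of a library share its total, such a low SD says only that both kept a similar share.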

How the data were processed

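Small RNA libraries of vesicle RNA were made with the NEBNext small RNA kit after exoRNeasy extraction, per the labels' protocols, and the submitters' processing notes list CASAVA 1.8 and Bowtie. Genome build, miRNA release and mismatch settings are not stated in the labels. The authors deposited read counts per miRNA for 6 libraries. The authors also deposited values headed TPM, which equal count divided by library total times 1000000 and are called CPM here. Counts were tested with the edgeR quasi-likelihood test (TMM factors, filterByExpr with a minimum count of 10 and a minimum total of 15, group as the only term), with Benjamini-Hochberg adjustment over all 206 tested miRNAs and a threshold of 0.05. Log2 deviations and ratios used CPM plus 1. A score over members was given no test.

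Work was done in Python 3.11.15 (scipy 1.17.1, pandas 2.3.3, matplotlib 3.10.9) and in R 4.3.3 with DESeq2 1.42.0, limma 3.58.1 and edgeR 4.0.16. The fit was also run on simulated counts with known fold changes, at a fixed spread between libraries that was not taken from these data. That run does not show how well the fit finds changes at the spread seen here. Wilson intervals and limits from 0 counts cover counting error only, since the reads carry no molecular identifiers, whereas intervals of fold changes come from the edgeR fit and include the variation between libraries. With a library left out, filter and TMM factors were computed anew. Repeated rows were those with counts within 2 counts or 6% in every library and a total of 50 or more. Hairpins were placed with RefSeq and GENCODE on GRCm38, and all 9 members matched. Named miRNAs were the members, their 3p arms, let-7j and let-7k, 5 transcript partners and the 5 miRNAs closest to the family sum. The members, lists and rules were chosen with earlier results of these data known. Across groups, libraries with the same replicate number had correlations of deviations of 0.358, -0.405 and -0.17. As the labels state no pairing, the main fit used no block. The let-7g with let-7i share was 68.2% in control 1 and 67.7% in IS 1. It was 62.6% in control 2 and 63.9% in IS 3, and 80.3% in control 3 and 82.9% in IS 2. Pairing in this order was not tested.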

Additional observations from a re-analysis of the deposited data

How the results depend on the processing

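Fits were repeated with DESeq2, with limma on log2(CPM + 1) or log2(CPM + 0.5), with a replicate block, unfiltered or with 10 CPM required in 3 libraries, under RLE factors or plain library totals, and without each library in turn. In all of them 0 miRNAs and 0 members passed an adjusted p of 0.05, and the smallest adjusted p of a member was 0.886. The sign was kept in 107 of 126 refits of members, and in all refits of let-7a, let-7b, let-7d, let-7e and miR-98. For let-7g the log2 fold change of 0.0027 turned to -0.027 with library totals, -0.039 with the CPM filter, -0.040 with the replicate block and -0.042 with limma at either pseudocount. For let-7i it turned from 0.059 to -0.0090 with the block and to -0.030 with limma at either pseudocount. With a library left out the range was -1.26 to -0.25 for let-7a, -0.57 to -0.18 for let-7b, -0.74 to -0.15 for let-7d, -2.01 to -1.06 for let-7e, -0.89 to -0.24 for miR-98, -0.36 to 0.27 for let-7c, -0.60 to 0.040 for let-7f, -0.47 to 0.29 for let-7g, -0.27 to 0.033 for let-7i, -0.86 to 0.14 for let-7a-1-3p, -0.90 to 0.0044 for miR-125a-5p and -0.029 to 1.34 for miR-125b-5p. With limma let-7a-1-3p, which has a library at 0, moved from -0.24 to -1.61 (plus 1) and -1.93 (plus 0.5), and let-7d-3p from -1.05 to as low as -1.97. The cause was not tested. The family percent differed between groups by -2.92 to 0.628 points with a library left out, and by -0.262 with repeated rows removed. These moves, and those when libraries were thinned to the smallest total or 3p arms and let-7j were added, were below the SD pooled over both groups (2.89 points), as were those of every share within the family. Without IS 2 the move of 2.11 points was above the control SD of 1.65, and the let-7i share, 1.42 points higher in IS, turned to -2.15 without IS 2 and to 5.76 without IS 3, moves above its control SD of 1.87. The let-7a share turned from -1.02 to 0.287 points without control 2, a move of 1.31 points, above its IS SD of 1.06. Without IS 2 the let-7d share moved by 0.118 points, above its control SD of 0.0884. The let-7e share moved by 0.0359 points without control 2 and 0.0237 without control 3, above its IS SD of 0.0235. The replicate block changed no call, and only replicate 1 had its own number as nearest partner across groups. A block that pairs libraries in another order was not fitted. Counts limit let-7e, let-7j and the 3p arms.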
